A study of Mus musculus with 9 samples.

Results

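The expression of 7 genes of lipoprotein carriage and cholesterol efflux was followed in RNA-seq data of mouse neural stem cells (NSCs) under 3 growth factor conditions. The genes were chosen by name, namely Apoe, Clu and Apod (secreted lipid carriers), Abca1 and Abcg1 (membrane pumps that pass cholesterol to such carriers), Lrp1 (a receptor that takes loaded carriers up) and Nr1h2 (the nuclear receptor LXR beta). They were matched by their Ensembl identifiers and make up 7 of the 55704 genes in the deposited table. The NSCs came from the subventricular zone of C57BL/6 mice aged 8 to 9 weeks, with 2 female and 2 male mice pooled in an isolation, and had gone through at least 3 passages. All cells were first kept in medium with bFGF and EGF. The 3 bFGF/EGF libraries (20 ng/mL of each factor) were collected at day 0. For the 3 bFGF/BMP4 libraries EGF was replaced by BMP4 (bFGF and BMP4 at 20 ng/mL each) and for the 3 BMP4 libraries both factors were replaced by BMP4 alone (20 ng/mL). Both were collected at day 6, so a difference from the bFGF/EGF-treated NSCs includes 6 days of culture, and treatment and time cannot be told apart there. bFGF/BMP4- and BMP4-treated NSCs differ by the presence of bFGF. The labels do not say whether the 3 libraries of a group came from separate isolations, so p-values measure the spread between these libraries, which may be partly technical.

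In the brain, cholesterol does not arrive with blood lipoproteins and is made locally. Glial cells secrete Apoe, which is lipidated by Abca1 and further loaded with the help of Abcg1 and related pumps, and the particles are taken up through lipoprotein receptors such as Lrp1 and Vldlr. The LXR receptors Nr1h2 and Nr1h3 bind oxysterols, pair with RXR receptors and switch on Abca1, Abcg1, in some cells Apoe, and the receptor-degrading ligase Mylip when cholesterol is abundant. Clu (clusterin, apolipoprotein J) is a secreted chaperone and carrier, and Apod is a small lipocalin that carries lipids. Apoe and Clu are both abundant in astrocytes.

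The LXR element of Abca1, the best known target of this pathway, is shown because the groups differed most clearly in Abca1 among the pumps. LXR and RXR bind a direct repeat of a hexamer with a spacer of 4 bases, and the stretch just before the Abca1 start holds such letters. It is shown 5′ to 3′ on the strand of the gene, from 107 to 12 bases before the RefSeq start (chr4:53159907-53160002, minus strand, GRCm39), with the matched bases in capitals.
Abca1: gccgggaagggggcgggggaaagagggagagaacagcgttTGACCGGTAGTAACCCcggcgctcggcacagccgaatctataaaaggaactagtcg
The pattern searched was NGGTNANNNNNGGTNA on both strands, and it lay on the opposite strand, at positions -67 to -52. It was written with the Abca1 element in mind, so the match is a description. RefSeq promoter windows (250 bases before to 50 after a start, from a GRCm38.p6 table placed on GRCm39 by exact match) were at hand for 5 of the 7 genes, in 7 windows, and not for Clu and Abcg1. Of all 32851 windows, 236 (0.718%) held the pattern, and among the 7 it was in that of Abca1. The sterol regulatory element TCACNCCAC (1.24% of all windows) and the AP-1 site TGANTCA (7.81%) were in 0 of the 7 windows, and the GC-rich SMAD element GGCGCC (11.9%) was in that of Nr1h2.

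Both BMP4 media were accompanied by much higher RNA levels of Apoe, Clu and Abca1, and the day 6 groups differed mainly in the carriers. The mean of Apoe was 84.1 times as high in bFGF/BMP4-treated and 262 times as high in BMP4-treated as in bFGF/EGF-treated NSCs. Clu was 4.18 and 46.9 times as high, and Abca1 was 47.6 and 32.3 times as high. Lrp1 (3.48 and 1.93 times), Abcg1 (3.33 and 2.40 times) and Nr1h2 (1.53 and 1.499 times) differed less. Between the day 6 groups, Clu (11.2 times) and Apoe (3.12 times) were higher with BMP4 alone. The values are FPKM, in which fragment numbers are divided by gene length and by library size, so levels can be set side by side between genes. Differences were tested with limma on log2(FPKM + 0.1), which understates changes of low genes, and a gene was called at an adjusted p of at most 0.05 with a fold change of at least 2.

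Of the 7 genes, 6 passed the filter of a mean of at least 0.1 FPKM and were tested, and Apod (mean 0.0994 FPKM) was not. Between bFGF/BMP4- and bFGF/EGF-treated NSCs, 5 of the 6 were called, all higher, where 30.6% of the 20207 genes tested were called and 16.5% were called higher. Between BMP4- and bFGF/EGF-treated NSCs, 3 of the 6 were called, all higher (36.6% of all genes called, 21.3% higher), and between BMP4- and bFGF/BMP4-treated NSCs 2 of the 6, both higher with BMP4 alone (13.5% called, 8.41% higher and 5.14% lower). Without the fold threshold, all 6 passed the adjusted p in both comparisons with bFGF/EGF (48.6% and 54.9% of all genes), all of them higher (25.0% and 29.6%). Between the day 6 groups 3 passed it (21.1%), of which Apoe and Clu were higher (12.2%) and Lrp1 was lower (8.89%) with BMP4. These comparisons share libraries, the bFGF/EGF libraries being the control of both day 6 groups.

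**Figure D1:**
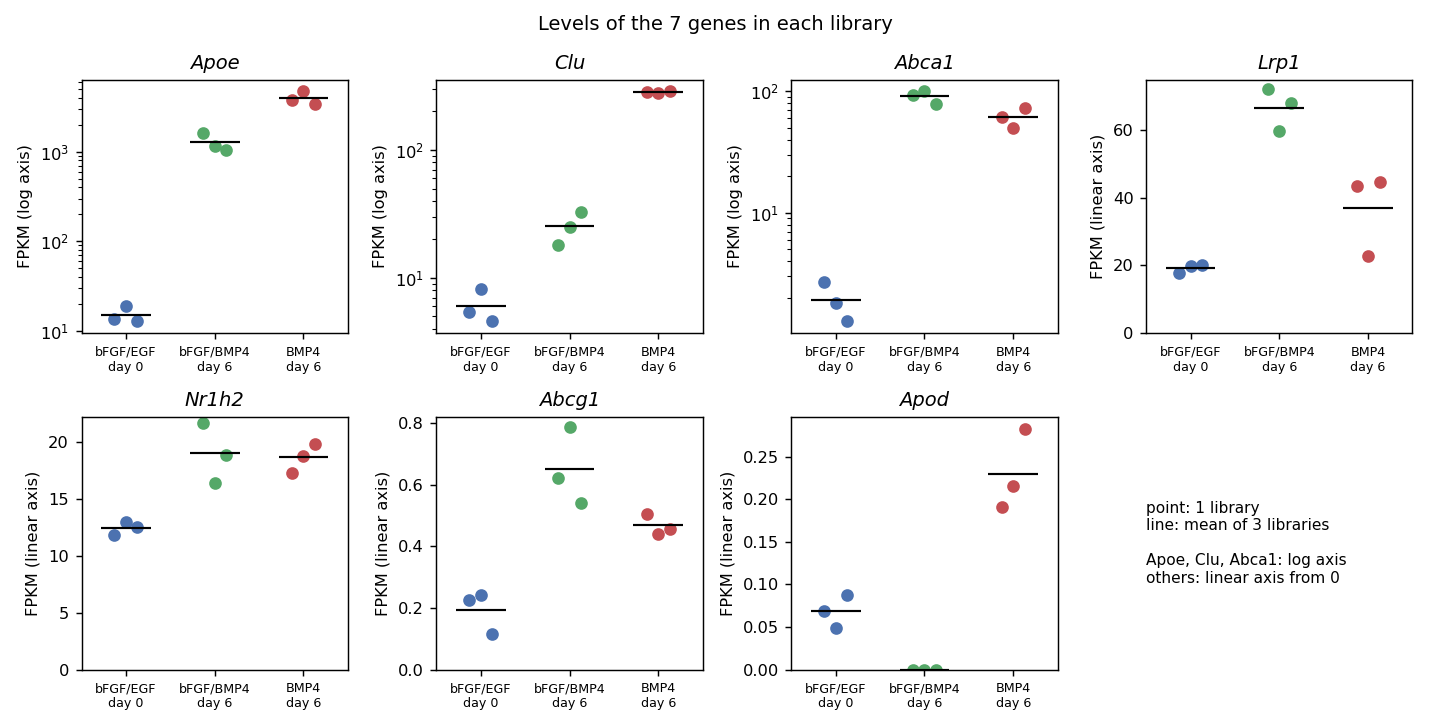
FPKM of the 7 genes in each of the 9 libraries, with 1 point per library and a line at the mean of 3. The y axes of Apoe, Clu and Abca1 are logarithmic and the others linear from 0. Nr1h2 is the only one of the 7 whose bFGF/BMP4 and BMP4 libraries overlap. Among all genes tested, 38.7% had no overlap between these groups.

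The libraries held 15901962 to 17437310 fragments on genes, as rebuilt from the FPKM steps. Pearson's correlation of log2 levels across genes, which are not independent, was 0.9502 to 0.964 within a group and 0.810 to 0.915 between groups. The media were checked by target genes of their factors. In all, 7 of 7 BMP target genes were called higher in both day 6 groups than with bFGF/EGF (Id1 at 21.0, 143 and 228 FPKM in bFGF/EGF, bFGF/BMP4 and BMP4), and 7 of 7 FGF/ERK target genes were called lower with BMP4 alone than in either other group (Etv5 at 206, 165 and 9.67 FPKM). The stem cell marker Sox2 was at 167, 137 and 137 FPKM, while Nes was at 151, 3.55 and 15.8 FPKM and Gfap at 0.0926, 19.4 and 2566 FPKM. Markers of other cells moved with the groups too. The summed level of 12 mature astrocyte markers ran from 238 to 327 FPKM in the bFGF/EGF, 902 to 1081 in the bFGF/BMP4 and 1940 to 2016 in the BMP4 libraries, though Aldh1l1 was called lower in both day 6 groups (135, 24.2 and 58.1 FPKM) and Slc1a2, Gjb6 and Slc4a4 lower with BMP4 than with bFGF/BMP4. Of 11 ependymal and choroid plexus markers, 10, 10 and 8 had group means under 1 FPKM. Their sum was 7.003 to 11.96, 11.002 to 11.97 and 59.7 to 71.3 FPKM, most of it Foxj1. Folr1 was at 0, 0.0284 and 4.52 FPKM. Of 6 tested, 1 was called higher with bFGF/BMP4 than with bFGF/EGF (16.5% of all genes). With BMP4 5 were called higher than with bFGF/EGF (21.3%) and 4 higher than with bFGF/BMP4 (8.41%), and 0 were called lower in any comparison. For 12 neuron and neuroblast markers the sum was 115 to 136, 70.1 to 76.2 and 172 to 244 FPKM, where Tubb3 (20.3, 17.0 and 145 FPKM) carried the BMP4 sum. Sox11 (38.1, 6.60 and 7.47 FPKM) and Syt1 were lower in both day 6 groups than with bFGF/EGF. Of 10 tested, 2 were called higher and 3 lower with bFGF/BMP4 than with bFGF/EGF (30.6% of all genes called). With BMP4 4 were higher and 2 lower than with bFGF/EGF (36.6%), and 5 higher and 1 lower than with bFGF/BMP4 (13.5%). For 12 oligodendrocyte lineage markers the sum was 1582 to 2292, 1358 to 1829 and 276 to 471 FPKM, most of it Olig1 and Olig2. Microglia also make Apoe, and of 11 microglia markers 10, 10 and 9 had group means under 1 FPKM and 5, 4 and 5 at 0. Their sum was 7.32 to 7.98, 8.38 to 11.1 and 9.28 to 12.2 FPKM. All 12 vascular, mural and fibroblast markers had means under 1 FPKM in all groups, though Rgs5 reached 1.22 FPKM in BMP4 replicate 2. Aldh1l1, Slc1a2, Gjb6, Slc4a4, Sox11 and Syt1 are named after their values were seen. The part of these cell types in the results was not tested.

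Apoe, the main lipid carrier of the brain (ENSMUSG00000002985, chr7:19430034-19434947, minus strand, GRCm39), had levels of 13.5, 19.0 and 12.8 FPKM in the bFGF/EGF libraries. The bFGF/BMP4 libraries had 1611, 1158 and 1046 FPKM, and the BMP4 libraries 3744, 4709 and 3444 FPKM. The 3 groups were far apart and did not overlap, as was the case for 57.7% (bFGF/BMP4 and bFGF/EGF), 60.4% (BMP4 and bFGF/EGF) and 38.7% (BMP4 and bFGF/BMP4) of all genes tested. Among the genes of a library, Apoe stood at place 3073 to 4077 by level with bFGF/EGF, at place 11 to 18 with bFGF/BMP4 and at place 3 or 4 with BMP4. The log2 difference from bFGF/EGF was 6.38 (SE 0.23, adjusted p = 5.43e-08) with bFGF/BMP4 and 8.04 (SE 0.23, adjusted p = 9.67e-09) with BMP4, at rank 26 and rank 19 among the increases of all genes tested. BMP4-treated NSCs exceeded bFGF/BMP4-treated NSCs by a log2 difference of 1.65 (SE 0.23, adjusted p = 0.000595). Apoe shares exon bases with the antisense transcript Gm71725, which was not analysed here. In bulk RNA, a higher share of cells that express a gene and more RNA per cell cannot be told apart.

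Clu (ENSMUSG00000022037, chr14:66190200-66218999, plus strand, GRCm39) separated the day 6 groups by a larger fold. Its levels were 5.41, 8.17 and 4.58 FPKM with bFGF/EGF, 18.0, 25.1 and 32.8 FPKM with bFGF/BMP4 and 284, 281 and 287 FPKM with BMP4. The BMP4 libraries were the closest to each other and stood at places 82, 118 and 85 among the genes of their library. The log2 difference from bFGF/EGF was 2.05 (SE 0.24, adjusted p = 7.37e-05) with bFGF/BMP4 and 5.57 (SE 0.24, adjusted p = 1.02e-07) with BMP4. Between the day 6 groups it was 3.53 (SE 0.24, adjusted p = 9.32e-06), at rank 126 among the increases of the 20207 genes. The gene bodies of Clu and Scara3 overlap on opposite strands, but they share no exon bases.

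Apoe and Clu changed in different proportions. Apoe had 2.33 to 2.79 times the level of Clu in the bFGF/EGF libraries, 31.9 to 89.4 times in the bFGF/BMP4 libraries and 12.004 to 16.7 times in the BMP4 libraries. This ratio does not depend on how libraries were scaled. Its log2 mean was 1.34 ± 0.13, 5.67 ± 0.75 and 3.79 ± 0.25 (SD, n = 3), and no libraries of different groups overlapped. The share of a library's summed FPKM held by Apoe, Clu and Apod together was 0.00762% ± 0.00142, 0.466% ± 0.113 and 1.44% ± 0.0950 (SD, n = 3). The differences between groups were 0.459, 1.43 and 0.973 percentage points, and 0.260, 0.896 and 0.636 on rebuilt fragment numbers, which are not per length. In all 6 of these pairwise comparisons the exact permutation test, two-sided, gave p = 0.1, the smallest value that 3 against 3 libraries allow (0.1125 after Benjamini-Hochberg adjustment over 9 tests of this kind).

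Apod (ENSMUSG00000022548, chr16:31115010-31135355, minus strand, GRCm39) was close to the limit of detection. The bFGF/EGF libraries had 3, 2 and 4 fragments (0.0685, 0.0491 and 0.0878 FPKM), the bFGF/BMP4 libraries 0 fragments, and the BMP4 libraries 8, 9 and 12 fragments (0.191, 0.216 and 0.282 FPKM). All BMP4 libraries were above all others. A count of 0 allows up to 3 fragments in a library, which is 0.0725 to 0.0791 FPKM, so the mean of Apod with BMP4 was at least 3.03-fold higher than what the bFGF/BMP4 libraries allow. From the 29 fragments with BMP4 and the 9 with bFGF/EGF, the ratio was 3.32 (95% Clopper-Pearson interval 1.53 to 7.98). This interval covers counting error only. Apod shares exon bases with the antisense transcript Gm41442, which reached 0.577 FPKM, and since the strand setting of the counting is not given in the sources used here, their fragments cannot be told apart.

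Other genes of the apolipoprotein list were low. Of 15 genes, 1 of which (Apobr) codes for a receptor, 8 were tested, with 2 called higher and 1 lower with bFGF/BMP4 (30.6% of all genes called), and 3 higher and 1 lower with BMP4 (36.6%), than with bFGF/EGF. Their median log2 difference was -0.15 and -0.09, and that of all genes was 0.06 and 0.10. Apoc1, a small exchangeable apolipoprotein whose gene neighbours Apoe, was at 0 FPKM in all bFGF/EGF libraries, at 1.67, 1.49 and 0.731 FPKM with bFGF/BMP4 and at 1.66, 4.48 and 3.26 FPKM with BMP4. It was at least 5.41-fold higher with bFGF/BMP4 and at least 13.04-fold higher with BMP4 than the level of 3 fragments per library. Apoh, which binds phospholipids, had means of 0.153, 1.07 and 2.18 FPKM and log2 differences from bFGF/EGF of 2.28 and 3.24, but shares 162 exon bases with the opposite-strand gene Prkca (up to 64.6 FPKM). The other called genes, named after their values were seen, were Apoc3 (higher with BMP4, mean 0.545 FPKM) and Apon (lower in both, 0.326 FPKM with bFGF/EGF). Apoa2, a protein of high-density lipoproteins, had means of 3.29, 2.40 and 2.59 FPKM and was not called. It shares 889 exon bases with the opposite-strand gene Tomm40l (up to 5.28 FPKM), and like Apobr it is named after its values were seen. Apob, the protein of low-density lipoproteins, and Apoa1, that of high-density lipoproteins, were at most 0.00886 and 0.149 FPKM and were not tested. Of the 8, 0 were called between the day 6 groups with limma, while 3 had an unadjusted p under 0.05, and limma-voom on rebuilt fragments called 2.

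Abca1, the pump that first lipidates apolipoproteins (ENSMUSG00000015243, chr4:53030787-53159900, minus strand, GRCm39), had 2.67, 1.79 and 1.28 FPKM in the bFGF/EGF libraries. It had 94.0, 100.02 and 79.5 FPKM with bFGF/BMP4, and 61.8, 50.4 and 73.4 FPKM with BMP4. Both day 6 groups were far above bFGF/EGF, and all bFGF/BMP4 libraries were above all BMP4 libraries. The log2 difference from bFGF/EGF was 5.55 (SE 0.24, adjusted p = 1.32e-07) with bFGF/BMP4 and 4.98 (SE 0.24, adjusted p = 1.83e-07) with BMP4. Between the day 6 groups it was -0.57, with a 95% interval from -1.10 to -0.04 before adjustment and an adjusted p of 0.128, so a difference was not shown over all genes. Apoe and Clu were highest in BMP4-treated NSCs, whereas the mean of Abca1 was highest in bFGF/BMP4-treated NSCs.

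Abcg1, which moves cholesterol to partly loaded particles (ENSMUSG00000024030, chr17:31276649-31336969, plus strand, GRCm39), was low in all groups. It had 28, 28 and 15 fragments with bFGF/EGF (0.226, 0.243 and 0.116 FPKM), 73, 88 and 58 with bFGF/BMP4 (0.623, 0.786 and 0.540 FPKM) and 60, 52 and 55 with BMP4 (0.506, 0.440 and 0.457 FPKM). All day 6 libraries were above all bFGF/EGF libraries. The log2 difference was 1.36 (SE 0.29, adjusted p = 0.00342) with bFGF/BMP4 and 0.97 (SE 0.29, adjusted p = 0.0175) with BMP4, just under the fold threshold. It was -0.39 between the day 6 groups (95% interval -1.05 to 0.27, adjusted p = 0.414). With a pseudocount of 1 the value for bFGF/BMP4 was 0.46 and not called, and on the TPM scale and with limma-voom the value for BMP4 was 1.13 and 1.22 and called. The level of Abca1 was 7.39 to 11.8 times that of Abcg1 in the bFGF/EGF, 127 to 151 times in the bFGF/BMP4 and 115 to 161 times in the BMP4 libraries. The log2 ratio did not differ beyond its spread between the day 6 groups (difference -0.11, exact permutation test, two-sided, p = 0.6), and each day 6 group differed from bFGF/EGF at the smallest possible p of 0.1.

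Other lipid transporters of the ABC family were in part also higher at day 6. Of 15 tested of 19 listed, 8 were called with bFGF/BMP4 and 8 with BMP4, all of them higher (16.5% and 21.3% of all genes), with median log2 differences of 1.07 and 1.01 (0.06 and 0.10 over all genes). Abca5, a lysosomal transporter, had means of 1.56, 6.83 and 6.86 FPKM and a log2 difference from bFGF/EGF of 2.10 in both groups. Abca7, which moves phospholipids and is a risk gene of Alzheimer's disease, had 3.14, 8.35 and 7.30 FPKM (log2 1.38 and 1.18). Abca8b had 1.08, 4.24 and 2.19 FPKM (1.93 and 1.01), and its paralog Abca8a may share fragments with it. Abcg4, the closest relative of Abcg1 and known from neural cells, had 2.76, 4.41 and 3.49 FPKM, above Abcg1 in all groups, and was not called in any comparison. Of the 15, 0 were called between the day 6 groups with limma, and limma-voom called 3. With limma, 5 had an unadjusted p under 0.05. Of these, 2 passed the adjusted p without the fold threshold, both lower with BMP4 (8.89% of all genes).

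**Figure D2:**
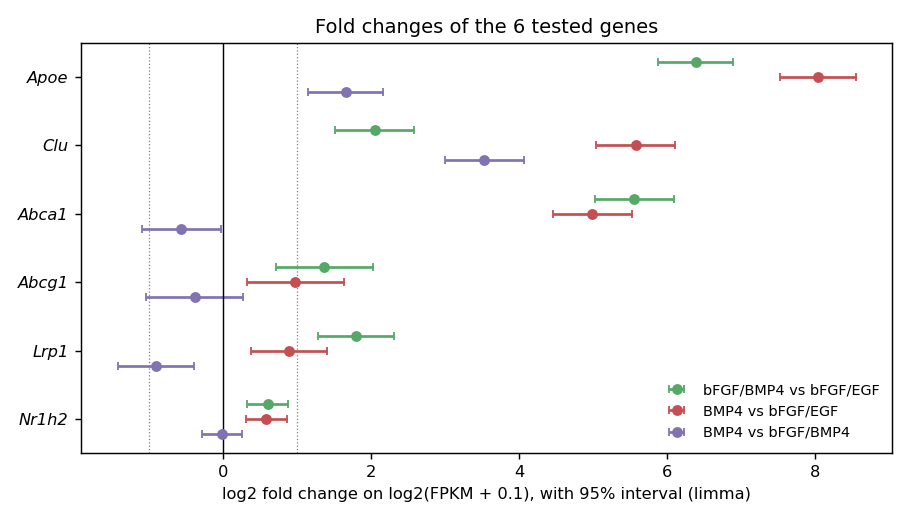
Log2 fold change of the 6 tested genes in the 3 comparisons, with 95% intervals of the limma fit on log2(FPKM + 0.1). Dotted lines mark a fold change of 2 in either direction. Apoe and Clu lie above the upper line in all 3 comparisons, Abca1 lies above it in both comparisons with bFGF/EGF and below 0 between the day 6 groups, and Nr1h2 lies between the lines in all 3.

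Lrp1, the large endocytic receptor for Apoe particles (ENSMUSG00000040249, chr10:127374012-127457017, minus strand, GRCm39), was highest with bFGF/BMP4. The levels were 17.8, 19.7 and 19.9 FPKM with bFGF/EGF, 72.04, 59.6 and 67.8 FPKM with bFGF/BMP4 and 43.5, 22.6 and 44.5 FPKM with BMP4. The groups did not overlap, and BMP4 replicate 2 stood apart from the other BMP4 libraries, close to the bFGF/EGF libraries. The log2 difference from bFGF/EGF was 1.79 (SE 0.23, adjusted p = 0.000136) with bFGF/BMP4 and 0.88 (SE 0.23, adjusted p = 0.00840) with BMP4, the latter under the fold threshold. BMP4-treated NSCs were lower than bFGF/BMP4-treated NSCs by a log2 difference of -0.91 (SE 0.23, adjusted p = 0.0182), again under the fold threshold. Lrp1 shares exon bases with the antisense transcript Gm67009, which was not analysed here.

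BMP4 replicate 2 deviated from the other BMP4 libraries by gene length, and Lrp1 deviated further than the median of long genes. In that library, protein-coding genes under 2 kb were higher than in the other BMP4 libraries by a median log2 ratio of 0.45 (1279 genes), and genes over 10 kb were lower, at -0.37 (1187 genes). Lrp1, with a length of 17717 bases behind its FPKM, was at -0.96, and Abca1, with 10363 bases, at -0.42. In bFGF/EGF replicate 2 the medians of the shortest and longest genes were 0.28 and -0.24, and Lrp1 was at 0.06. Without BMP4 replicate 2, the log2 difference of Lrp1 was 1.1995 between BMP4 and bFGF/EGF (adjusted p = 5.51e-05), which passes the fold threshold, and -0.59 between BMP4 and bFGF/BMP4, which does not. The part of length or RNA quality in the result was not tested. Between groups, genes over 10 kb had a median log2 difference of 0.20 (bFGF/BMP4 and bFGF/EGF), 0.05 (BMP4 and bFGF/EGF) and -0.15 (BMP4 and bFGF/BMP4).

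**Figure D3:**
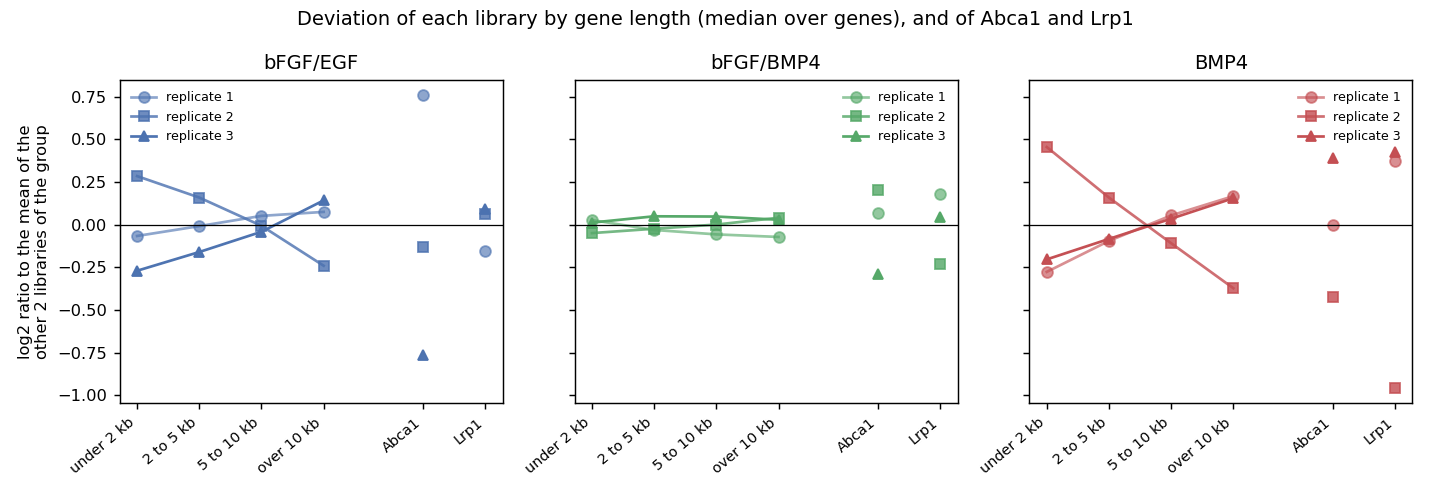
Median log2 ratio of each library to the mean of the other 2 libraries of its group, for protein-coding genes in 4 classes of length, and the ratios of Abca1 and Lrp1 on the same y axis. Lines join the classes of 1 library. BMP4 replicate 2 falls from 0.45 for genes under 2 kb to -0.37 for genes over 10 kb, and Lrp1 lies at -0.96 in it.

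The other lipoprotein receptors moved both ways. Of 20 tested of 24 listed, 4 were called higher and 6 lower with bFGF/BMP4 than with bFGF/EGF, 6 higher and 7 lower with BMP4, and 1 higher and 3 lower between BMP4 and bFGF/BMP4 (30.6%, 36.6% and 13.5% of all genes called). Vldlr, which binds Apoe and reelin, had means of 9.72, 13.8 and 4.28 FPKM and was lower with BMP4 than with bFGF/EGF (log2 -1.16) and than with bFGF/BMP4 (-1.69). Lrp8, the other reelin receptor, had means of 7.48, 4.50 and 6.56 FPKM and was not called. Scarb1, the receptor that takes cholesterol esters from particles, had 17.3, 2.93 and 1.205 FPKM and fell in all 3 comparisons (-2.54, -3.73 and -1.19). Lrp4 (2.05, 14.1 and 20.5 FPKM) and Lrp1b (0.264, 3.15 and 2.44 FPKM), close relatives of Lrp1, rose in both day 6 groups, by 2.66 and 3.22 and by 3.18 and 2.80 on the log2 scale. The others that rose with bFGF/BMP4 were Lrp10 and Sorl1, and between the day 6 groups Lrp2 was higher and Sorcs2 lower with BMP4, all named after their values were seen.

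Genes that chaperone, link or degrade these receptors were called more often higher than lower, and so were all genes tested. Of 17 listed and tested, 10 were called higher and 2 lower with bFGF/BMP4 (30.6% of all genes called, 16.5% higher and 14.1% lower). With BMP4 7 were higher and 2 lower (36.6%, 21.3% higher and 15.4% lower). Between BMP4 and bFGF/BMP4 4 were higher and 2 lower (13.5%, 8.41% higher and 5.14% lower). Lrpap1, the chaperone that keeps Lrp1 free of ligands on its way to the surface, had 20.4, 24.7 and 18.1 FPKM with bFGF/EGF, 44.0, 45.3 and 44.1 with bFGF/BMP4 and 34.4, 40.3 and 36.1 with BMP4. It was called with bFGF/BMP4 (log2 1.09) and was under the fold threshold with BMP4 (0.82, adjusted p = 0.000372). Reln, the secreted ligand of Vldlr and Lrp8, rose from a mean of 0.506 FPKM to 4.21 and 18.1 FPKM (2.83 and 4.86). Among the syndecans, heparan sulfate carriers that also hold lipoproteins at the surface, Sdc4 rose (20.0, 45.2 and 139 FPKM) and Sdc1 fell (18.1, 2.05 and 6.39 FPKM). In BMP4- against bFGF/BMP4-treated NSCs, Sdc1, Sdc4 and Reln were among the higher genes and Mylip and Sdc3 were the lower ones, with Sdc3 named after its values were seen.

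Nr1h2, the LXR receptor that is expressed in most tissues (ENSMUSG00000060601, chr7:44199036-44203406, minus strand, GRCm39), differed little between the groups. It had 11.8, 12.95 and 12.5 FPKM with bFGF/EGF, 21.7, 16.4 and 18.9 FPKM with bFGF/BMP4 and 17.3, 18.8 and 19.8 FPKM with BMP4. All day 6 libraries were above all bFGF/EGF libraries, and the day 6 groups overlapped. The log2 difference from bFGF/EGF was 0.60 (SE 0.12, adjusted p = 0.00257) and 0.58 (SE 0.12, adjusted p = 0.00263), both under the fold threshold. Between the day 6 groups it was -0.02, with a 95% interval of -0.29 to 0.25, and its sign changed in 3 alternatives.

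The receptors that share its targets or pair with it differed among themselves. Nr1h3, the other LXR gene, had 0.351, 0.704 and 0.360 FPKM with bFGF/EGF, 3.32, 3.01 and 2.30 with bFGF/BMP4 and 2.38, 2.95 and 2.02 with BMP4, log2 differences of 2.42 and 2.20. It was below Nr1h2 in all libraries, and it shares 256 exon bases with the opposite-strand gene Acp2, which reached 17.3 FPKM. Rxra, a shared partner of both LXRs, had 7.44, 9.29 and 6.77 FPKM with bFGF/EGF, 14.2, 12.9 and 11.4 with bFGF/BMP4 and 4.90, 4.76 and 5.66 with BMP4. It was lower with BMP4 than with bFGF/BMP4 (log2 -1.31, adjusted p = 0.000189), and its differences from bFGF/EGF (0.71 and -0.60) were under the fold threshold. Rxrb, another partner, had means of 8.59, 11.3 and 10.6 FPKM and was not called, and is named after its values were seen. Rxrg was at 0 or 1 fragment in the bFGF/EGF libraries and at 0.753 and 2.49 FPKM at day 6, at least 9.68-fold and at least 32.0-fold higher than the level of 3 fragments per library. Of 16 tested of 17 receptors and co-regulators, 5 were called higher and 1 lower with bFGF/BMP4, 4 higher and 1 lower with BMP4, and 1 higher (Rxrg) and 1 lower (Rxra) between the day 6 groups. These shares (37.5%, 31.25% and 12.5%) were near those of all genes (30.6%, 36.6% and 13.5%). The higher genes were Nr1h3, Rxrg, Rara and Ncoa1 in both comparisons with bFGF/EGF, and also Ppara (its exons overlap Cdpf1) for bFGF/BMP4. Rara, Ncoa1 and Ppara were named after their values were seen.

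Known LXR targets other than Apoe, Abca1 and Abcg1 differed in direction and size. Of 18 tested of 21 listed, 5 were called higher and 1 lower with bFGF/BMP4 (median log2 0.62) and 9 higher and 1 lower with BMP4 (0.97), while 1 was higher and 2 lower between BMP4 and bFGF/BMP4 (0.27). The share called was 33.3% with bFGF/BMP4, near the 30.6% of all genes, 55.6% with BMP4 (36.6% of all genes) and 16.7% between the day 6 groups (13.5%). Mylip, the ligase that marks Vldlr for degradation, had 0.455, 0.606 and 0.490 FPKM with bFGF/EGF, 19.0, 32.7 and 39.8 with bFGF/BMP4 and 2.69, 3.69 and 3.60 with BMP4. It was called in all 3 comparisons (log2 5.57, 2.47 and -3.11). Srebf1, the master gene of fatty acid synthesis, had means of 38.6, 56.6 and 77.5 FPKM and was called with BMP4 against bFGF/EGF (1.04). Pltp, the phospholipid transfer protein of lipoproteins, had 1.66, 1.69 and 14.99 FPKM and rose with BMP4 alone (3.12 against bFGF/EGF, 3.10 against bFGF/BMP4), though it shares 1252 exon bases with the opposite-strand gene Ctsa (up to 31.8 FPKM). The others higher with bFGF/BMP4 were Nr1h3, Apoc1, Mertk and Smpdl3a, and the gene lower in both day 6 groups was Arl4c. Between the day 6 groups, Mylip and Mertk were lower and Pltp higher with BMP4. Mertk, Smpdl3a and Arl4c were named after their values were seen.

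**Figure D4:**
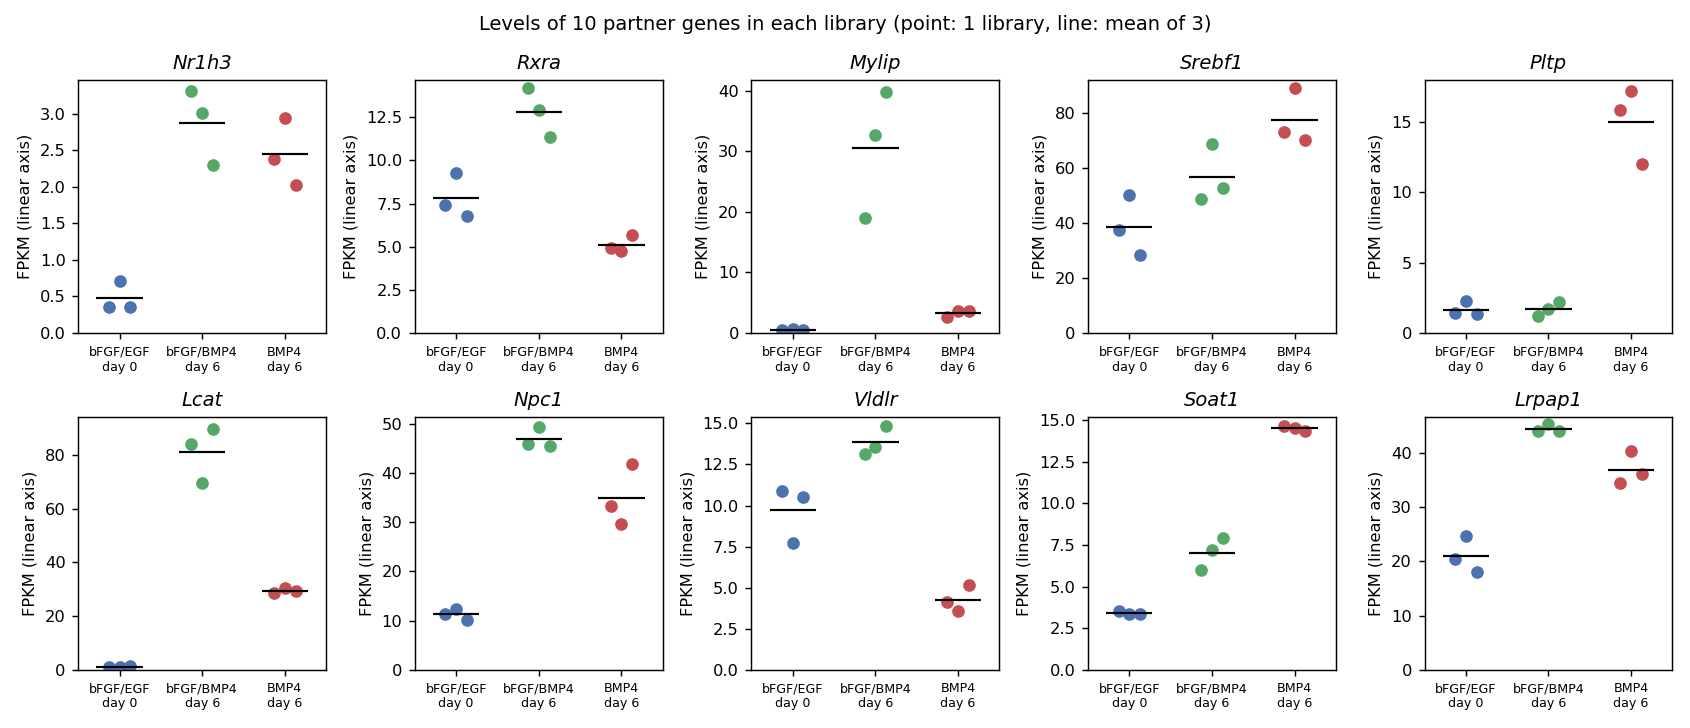
FPKM of 10 partner genes in each of the 9 libraries on linear axes from 0, with 1 point per library and a line at the mean of 3. Mylip, Lcat, Rxra, Vldlr, Npc1 and Lrpap1 are highest with bFGF/BMP4, as is the mean of Nr1h3, whose day 6 groups overlap. Pltp is high with BMP4 alone, and Soat1 rises from bFGF/EGF over bFGF/BMP4 to BMP4.

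Enzymes that remodel lipoproteins were in part higher at day 6. Of 12 tested of 17 listed, 5 were called with bFGF/BMP4 and 6 with BMP4, all of them higher than with bFGF/EGF (16.5% and 21.3% of all genes), with median log2 differences of 0.62 and 1.03. Lcat, which esterifies the cholesterol of Apoe particles, had 1.23, 0.942 and 1.43 FPKM with bFGF/EGF, 84.0, 69.4 and 89.7 with bFGF/BMP4 and 28.4, 30.4 and 29.5 with BMP4. Like Abca1, it was called higher in both day 6 groups (log2 5.97 and 4.52), but it was also called lower with BMP4 than with bFGF/BMP4 (-1.45). Pla2g7, a secreted phospholipase that travels on lipoproteins, followed the order of Apoe, with means of 6.00, 112 and 327 FPKM and calls in all 3 comparisons (4.18, 5.74 and 1.56). Lpl, which releases fatty acids from triglyceride-rich particles, had 1.21, 0.849 and 0.594 FPKM and was not called. The others called with bFGF/BMP4 were Lipg, Pon2 and Pon3, and between the day 6 groups Pltp and Pla2g7 were higher and Lcat and Lipg lower with BMP4. Lipg, Pon2 and Pon3 were named after their values were seen.

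Among genes of cholesterol transport and storage inside the cell, the share called higher with bFGF/BMP4 was near that of all genes (17.4% and 16.5%). Of 23 tested of 24 listed, 4 were called higher and 1 lower with bFGF/BMP4 (median log2 0.02) and 9 with BMP4, all higher (0.67), and 6 with BMP4 against bFGF/BMP4, all higher (0.07). The share called higher was 39.1% with BMP4 (21.3% of all genes) and 26.1% between the day 6 groups (8.41%). Npc1, which exports cholesterol from lysosomes, had 11.4, 12.4 and 10.1 FPKM with bFGF/EGF, 45.9, 49.5 and 45.4 with bFGF/BMP4 and 33.3, 29.6 and 41.8 with BMP4 (log2 2.05 and 1.61), and shares exon bases with Rmc1. Its partner Npc2 had means of 28.2, 38.6 and 40.3 FPKM, was not called and shares 593 exon bases with Isca2. Soat1, which stores cholesterol as esters, rose in steps (3.41, 7.03 and 14.5 FPKM) and was called in all 3 comparisons. The sterol-binding protein gene Osbpl1a rose in both day 6 groups (4.07, 28.8 and 36.0 FPKM), though it shares 1877 exon bases with Cabyr. Osbpl5 (8.35, 5.95 and 17.8 FPKM) and Tspo, a mitochondrial membrane protein gene (1.93, 1.16 and 4.16 FPKM), were higher with BMP4 than in either other group, though Tspo shares exon bases with Ttll12 and Mcat. Lamp2 was the other gene that rose and Cav1 the gene that fell with bFGF/BMP4, both named after their values were seen.

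Oxysterols are the ligands of Nr1h2 and Nr1h3. Of 5 tested of 10 genes of oxysterol synthesis and breakdown, 3 were called higher in both comparisons with bFGF/EGF (16.5% and 21.3% of all genes), namely Cyp46a1, Cyp7b1 and, named after its values were seen, Cyp39a1. A lower call was made for 1 gene with BMP4. Cyp46a1, which makes 24-hydroxycholesterol and is known from neurons, rose from a mean of 1.96 to 22.8 and 28.5 FPKM (log2 3.48 and 3.81). Cyp7b1, which breaks oxysterols down, rose from 0.210 to 2.87 and 3.01 FPKM. Of the 5, limma and limma-voom called 0 between the day 6 groups, and 2 had an unadjusted p under 0.05. Of these 2, 1 passed the adjusted p of limma without the fold threshold, lower with BMP4 (8.89% of all genes).

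Over all 9 lists of pathway genes, which share some members, 126 of 153 genes were tested. With bFGF/BMP4 43 were called higher and 12 lower than with bFGF/EGF (median log2 0.51), with BMP4 51 higher and 13 lower (0.58), and between BMP4 and bFGF/BMP4 14 higher and 9 lower (-0.04). The shares called were 43.7%, 50.8% and 18.3%, and those of all genes 30.6%, 36.6% and 13.5%. Over all genes tested the medians were 0.06, 0.10 and 0.00.

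The order of the 7 genes by level changed with the medium. With bFGF/EGF it was Lrp1 (mean 19.1 FPKM), Apoe (15.1), Nr1h2 (12.4), Clu (6.05), Abca1 (1.92), Abcg1 (0.195) and Apod (0.0685). The libraries of Lrp1 and Apoe overlapped there, as did those of Apoe and Nr1h2. With bFGF/BMP4 the order was Apoe (1272), Abca1 (91.2), Lrp1 (66.5), Clu (25.3), Nr1h2 (19.0), Abcg1 (0.650) and Apod (0), and the libraries of Clu and Nr1h2 overlapped. With BMP4 it was Apoe (3966), Clu (284), Abca1 (61.9), Lrp1 (36.9), Nr1h2 (18.6), Abcg1 (0.468) and Apod (0.230), with no overlap between neighbours. Clu stood at place 4 with bFGF/EGF and at place 2 with BMP4 alone, and Abca1 at place 5 with bFGF/EGF and at place 2 with bFGF/BMP4.

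The genes with the most similar pattern were sought over the 9 libraries among 7899 genes with a mean of at least 5 FPKM, by Pearson's r of log2(FPKM + 0.1). With 3 groups such values are high for many genes and are given as a description. For Apoe they were Pygb (r = 0.999), the brain glycogen phosphorylase, and Ctsb (0.998), a lysosomal protease, and 649 genes had an r over 0.95. For Clu they were Cd59a (0.997), an inhibitor of complement lysis, and Bace2 (0.997), with 228 genes over 0.95, and for Abca1 they were Rgs9 (0.999) and Tns3 (0.998), with 481. For Lrp1 they were Man2a2 and Vps13d (both 0.993), with 56 genes. For Nr1h2 they were Ppox (0.977) and Gabarapl1 (0.974), with 46, and for Abcg1 Pias3 (0.984) and Errfi1 (0.970), with 33. Pygb had means of 12.6, 182 and 378 FPKM, and Cd59a of 0.0774, 1.31 and 55.7 FPKM.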

How the data were processed

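RNA of 9 libraries was measured. Per the labels and the submitters' processing notes, the authors cleaned reads with fastp 0.19.7, aligned them to mm39 with HISAT2 2.0.5, counted with featureCounts 1.5.0-p3 and deposited FPKM values, with the replicates in separate columns. The annotation release, the strand setting and the program for FPKM are not given in the sources used here. Fragment numbers were rebuilt from the FPKM steps (30860 of 30860 genes above 0, whole within 0.02), which gave libraries of 15901962 to 17437310 fragments. A count of 0 allows 3 fragments in a library, and this limit and the 95% interval on the Apod ratio cover counting error only, while other intervals are those of the limma fit.

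Since the deposited FPKM are not counts, limma 3.58.1 (R 4.3.3, with a trend) on log2(FPKM + 0.1) took the place of the study's DESeq2. Genes with a mean of at least 0.1 FPKM (20207) entered 1 fit of all libraries without covariates, with Benjamini-Hochberg adjustment, and the code was tested on simulated data. Within-library ratios were compared by exact permutation in Python 3.11.15 (scipy 1.17.1). Coordinates are from GENCODE vM39 and promoters from RefSeq. Genes were named by a rule: the 7 genes, 17 fixed partners, and in each pathway list and comparison the 2 called genes with the largest change among those with a mean of at least 1 FPKM, besides markers, label checks and the 2 most similar genes. The genes, lists and rule were chosen with earlier results of these data known. The alternatives changed the pseudocount to 1, the filter to none or to at least 1 FPKM, and also tried the TPM scale, median-ratio scaling, limma-voom on rebuilt fragments, fits of only the compared groups, no fold threshold, a replicate block, and each library left out in turn. Some genes of the lists are counted but not reported here by name.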

Additional observations from a re-analysis of the deposited data

How the results depend on the processing

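For the 6 tested genes and 3 comparisons (18 results), 303 values were computed under other choices, of which 300 kept the direction and 291 the call. The direction of Nr1h2 between BMP4 and bFGF/BMP4, near 0 throughout (range without 1 library -0.12 to 0.08), turned with limma-voom (0.000296), without bFGF/BMP4 replicate 1 (0.0802) and without BMP4 replicate 1 (0.03). Abcg1 lost its call with bFGF/BMP4 at a pseudocount of 1 (log2 0.46, adjusted p = 0.00333) and, with BMP4 against bFGF/EGF, gained one on the TPM scale (1.13), with limma-voom (1.22) and without bFGF/EGF replicate 1, bFGF/EGF replicate 2 or BMP4 replicate 2 (range 0.76 to 1.10). Lrp1 with BMP4 was called higher than with bFGF/EGF without BMP4 replicate 2 (range 0.71 to 1.1995) and lower than with bFGF/BMP4 without BMP4 replicate 1 or 3 (range -1.08 to -0.59). At a pseudocount of 1, which lowers the fold of genes with few reads, 3544 genes were called with bFGF/BMP4 (1723 higher, 1821 lower), 4364 with BMP4 (2326 higher, 2038 lower) and 1449 between them (890 higher, 559 lower), of the pathway lists 15. With genes of at least 1 FPKM only, fewer genes being tested, 2649 rose with BMP4, and 1800 differed between the day 6 groups (1012 higher). With no fold threshold 9819 were called with bFGF/BMP4 and 4271 between the day 6 groups. On rebuilt fragment numbers, which are not per length, the share held by Apoe, Clu and Apod differed by 0.260, 0.896 and 0.636 percentage points. Deviations from the group means had correlations of -0.21 to 0.22 between libraries of equal replicate number. Libraries of unequal number were not compared, so these values cannot tell whether the replicate numbers pair the libraries. The fit with a replicate block called 6127, 7383 and 2612 genes and changed the call of none of the 6 genes. With 3 libraries a group, exact permutation cannot give a p below 0.1, and Apod and Abcg1 rest on few fragments.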
